A study of Mus musculus with 4 samples.

Results

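The 9 Toll-like receptor genes Tlr1, Tlr2, Tlr3, Tlr4, Tlr6, Tlr7, Tlr8, Tlr9 and Tlr13 were read in mouse macrophages given MB-3 or its solvent before lipopolysaccharide (LPS). They were the rows of the deposited gene table, 9 of 34745, whose symbol is exactly one of these names. The MB-3 group consisted of 2 libraries of cells pre-treated with 50 µM MB-3, a compound known to inhibit GCN5, an enzyme that acetylates lysines on histones and other proteins. The DMSO group consisted of 2 libraries of cells given the solvent alone. All 4 libraries were made from adherent macrophages washed out of the peritoneal cavity of wildtype C57BL/6 animals after thioglycolate, and all had received LPS at 100 ng/ml for 4 hours, so every value here is that of an LPS-stimulated cell and cells without LPS were not analysed here. The animals' age and number and any pooling are not stated in the labels. The title of the series speaks of bone marrow-derived macrophages, whereas the labels of all 4 samples give the peritoneal cavity as the source, and the sample labels are followed here.

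Toll-like receptors are membrane proteins whose leucine-rich ectodomain binds microbial molecules and whose cytoplasmic TIR domain recruits adaptor proteins. In macrophages Tlr2, paired with Tlr1 or Tlr6, and Tlr4 act at the cell surface on bacterial lipoproteins and LPS, while Tlr3, Tlr7, Tlr8, Tlr9 and Tlr13 sit in endolysosomes and read nucleic acids. The adaptor MyD88 serves most of them, the adaptor TRIF serves Tlr3 and Tlr4, and the endosomal receptors need the chaperone UNC93B1 to leave the endoplasmic reticulum.

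Total counts per library were 15598531 to 21320618, and all 9 genes passed the filter on low counts. The macrophage marker Lyz2 was the most abundant marker read, and the summed level of 7 macrophage markers was 30251 to 30406 CPM (counts over library size in units of 1e6 scaled by TMM factors) with MB-3 and 23253 to 23767 CPM with DMSO. Most of that sum was Lyz2, at a mean of 28300 CPM with MB-3 and 21843 CPM with DMSO. By the edgeR test, 4 of the 7 markers were higher with MB-3 (Lyz2, Cd68, Csf1r and Mrc1, log2 fold changes 0.34 to 0.71) and Fcgr1, the gene of the IgG receptor CD64, was lower, at 10.3 CPM with MB-3 and 54.0 CPM with DMSO (log2 fold change -2.38). Adgre1 (0.08), the gene of the macrophage antigen F4/80, was not past the threshold. Markers of other cells summed to at most 3.63 CPM in any library for each of the lists of B cells, of T or NK cells, of mast cells or eosinophils and of plasmacytoid dendritic cells. Within them Siglech, Fcer1a and Ncr1 had no count in any library, and the most abundant of each list, Ms4a1, Cd3g, Tpsb2 and Ccr9, averaged at most 2.28 CPM in either group. The lists of neutrophils, conventional dendritic cells and mesothelial cells or fibroblasts reached at most 16.1, 7.08 and 32.2 CPM. Mmp8 led the first list and Pdgfra the last. The dendritic cell list was led by Zbtb46 with MB-3 and by Batf3 with DMSO. The part of these cells in the results was not tested. In bulk RNA, fewer cells of a type and less RNA per cell cannot be told apart.

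With MB-3, 6 receptor genes were lower and 1 was higher. The double-stranded RNA receptor gene Tlr3 had the largest fall of the 9, 8.90-fold, and Tlr1, Tlr2, Tlr7 and Tlr8 were 2.52-fold to 3.57-fold lower. Tlr6 was 1.39-fold lower. Tlr13, the mouse receptor for bacterial ribosomal RNA, was 3.15-fold higher. Tlr4, the LPS receptor, and Tlr9, the receptor for CpG DNA, did not pass the threshold. Genes were called at an adjusted p under 0.05 in the quasi-likelihood test of edgeR, adjusted over 11841 genes by the Benjamini-Hochberg method. By this test 37.1% of all tested genes were called, 20.2% as lower and 16.9% as higher, beside 6 and 1 of the 9 receptors. The median log2 fold change (MB-3 over DMSO) was -1.39 over the 9 receptors and -0.01 over all tested genes. The receptor median is the value of Tlr4, which was not called and whose direction rests on DMSO replicate 1. The MB-3 and DMSO libraries did not overlap for 8 of the 9 genes, 6 of them lower and 2 higher with MB-3. Of all tested genes 70.8% did not overlap, 37.0% lower and 33.8% higher. The number of lower receptors was 5 without DMSO replicate 1, 7 without DMSO replicate 2, 6 without MB-3 replicate 1 and 5 without MB-3 replicate 2, and Tlr13 was the single higher one each time. Whether the 2 libraries of a group come from different cultures or mice is not stated, so the p-values reflect only how far these samples differ among themselves, possibly for technical reasons.

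**Figure D1:**
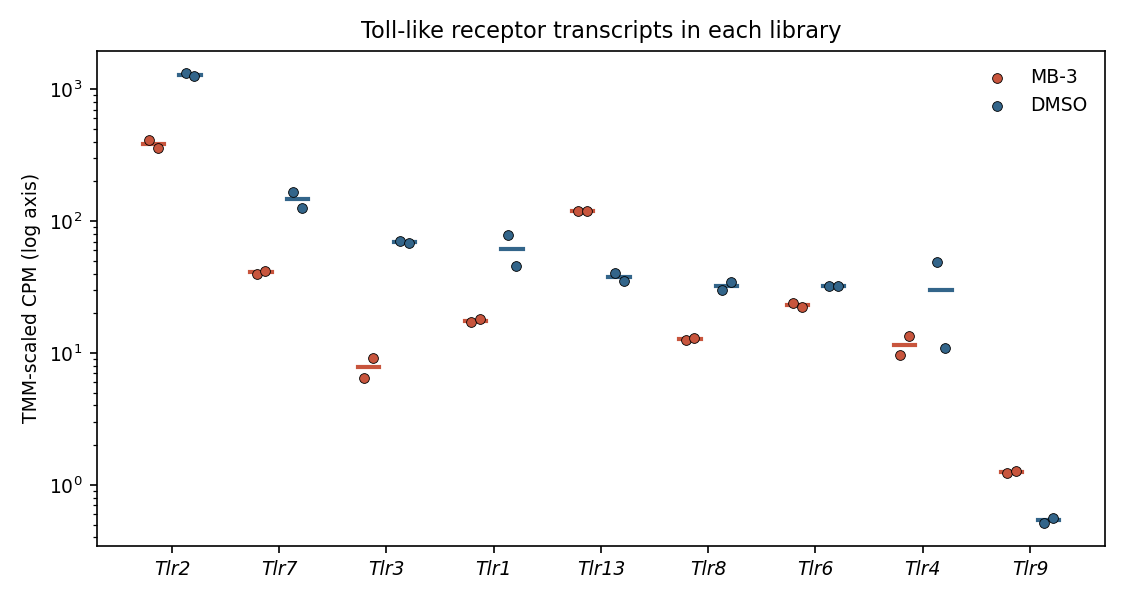
TMM-scaled CPM of each Toll-like receptor gene on a log axis, with MB-3 libraries in red to the left of DMSO libraries in blue. Points are the 2 libraries of a group and bars their mean. The groups are apart for 8 genes, with Tlr13 and Tlr9 higher with MB-3, while for Tlr4 one DMSO library lies between the MB-3 libraries.

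The regions around the start sites of Tlr3, Tlr2 and Tlr13 are shown because these genes had the largest fall, the highest level and the rise. The RefSeq promoter table on GRCm38.p6 gave 300 bases, 250 before and 50 after the start, for 7 of the 9 genes (9 windows in all). Tlr4 and Tlr7 had no entry. Capitals mark matches to any motif searched on both strands: GGGNNNTTC for NF-κB, GAAANNGAA for interferon-stimulated response elements, GAGGAAGT for the myeloid factor PU.1, TGANTCA for AP-1 and TGACNNNGC for antioxidant response elements. Each window is printed on the strand of its gene, 5′ to 3′.
Tlr3, chr8:45410331-45410630, minus strand: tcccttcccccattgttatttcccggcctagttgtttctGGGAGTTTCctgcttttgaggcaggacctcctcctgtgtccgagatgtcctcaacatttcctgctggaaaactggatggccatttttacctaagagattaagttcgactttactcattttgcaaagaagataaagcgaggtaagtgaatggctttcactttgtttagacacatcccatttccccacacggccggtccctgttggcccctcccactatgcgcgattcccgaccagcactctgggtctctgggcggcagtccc
Tlr2, chr3:83841559-83841858, minus strand: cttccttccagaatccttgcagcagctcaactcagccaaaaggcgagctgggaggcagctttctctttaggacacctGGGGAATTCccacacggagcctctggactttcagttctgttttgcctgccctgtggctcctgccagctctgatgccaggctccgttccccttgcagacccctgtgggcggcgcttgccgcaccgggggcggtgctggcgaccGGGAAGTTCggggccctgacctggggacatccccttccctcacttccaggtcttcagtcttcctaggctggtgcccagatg
Tlr13, chrX:106143025-106143324, plus strand: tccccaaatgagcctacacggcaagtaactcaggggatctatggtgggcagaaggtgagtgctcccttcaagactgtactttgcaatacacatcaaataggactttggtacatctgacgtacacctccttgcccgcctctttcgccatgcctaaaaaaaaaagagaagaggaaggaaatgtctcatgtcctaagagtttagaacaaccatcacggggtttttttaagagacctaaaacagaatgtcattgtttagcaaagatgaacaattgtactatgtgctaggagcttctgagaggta
Positions count from the RefSeq start site. The capitals in the Tlr3 window begin at base -211 and those in the Tlr2 window at bases -173 and -31. All 3 are matches to the NF-κB letters. In the deposited coordinates both genes begin further upstream, at 45410608 for Tlr3 and 83841767 for Tlr2. The Tlr3 match and the Tlr2 match at -31 thus lie inside the genes as deposited. The Tlr13 window held no match to the 5 motifs. The NF-κB letters were found in 3 of the 9 receptor windows (Tlr2, Tlr3 and 1 of the 2 Tlr6 windows), and in 14.0% of all 32851 promoter windows. The interferon letters were in 2 of the 9, the other Tlr6 window and that of Tlr8, and in 8.56% of all windows. The PU.1 letters were in 2 of the 9, those of Tlr9 and 1 of the 2 Tlr1 windows, and in 3.20% of all. The AP-1 and antioxidant letters were each found in 1 of the 9, the window of Tlr9, and in 7.81% and 12.4% of all windows. A match is a run of letters and not a measured binding site.

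Tlr2 encodes the shared chain of the lipoprotein receptors and had by far the highest level of the family in every library. It had 410 and 359 CPM in the MB-3 libraries, against 1321 and 1253 CPM in the DMSO libraries. Both MB-3 libraries were below both DMSO libraries, with a log2 fold change of -1.74 (SE 0.0875, edgeR adjusted p = 4.06e-05). Tlr2 (ENSMUSG00000027995) lies on chromosome 3 from 83836272 to 83841767 in the deposited coordinates, whose submitters' notes name mm10 and GRCm38.p4.

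Tlr1 and Tlr6 encode the partner chains that let Tlr2 tell triacylated from diacylated lipoproteins, and they lie 18468 bases apart on chromosome 5 (64924679 to 64933563 and 64952031 to 64960097). Tlr1 (ENSMUSG00000044827) had 17.2 and 18.1 CPM in the MB-3 libraries, against 78.0 and 45.9 CPM in the DMSO libraries. The MB-3 libraries agreed closely while the DMSO libraries differed 1.70-fold, yet the groups did not overlap (log2 fold change -1.82, SE 0.246, edgeR adjusted p = 0.00223). Tlr6 (ENSMUSG00000051498) had 24.0 and 22.1 CPM in the MB-3 libraries, against 32.2 and 32.1 CPM in the DMSO libraries. Its fall of 0.48 on the log2 scale (SE 0.102) had an edgeR adjusted p of 0.0133, and it was not past the threshold without MB-3 replicate 2 (edgeR adjusted p = 0.0688) or without DMSO replicate 1 (edgeR adjusted p = 0.0539). On the length-scaled FPKM values (the authors' fragments per kilobase and library size) the ratio of Tlr1 to Tlr6 was 0.478 and 0.546 in the MB-3 libraries, against 1.62 and 0.959 in the DMSO libraries. The ratio of Tlr2 to Tlr6 was 23.3 and 22.2 in the MB-3 libraries, against 56.2 and 53.4 in the DMSO libraries.

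Part of each of these values is uncertain because the Tlr1 and Tlr6 transcripts are near-identical over a stretch. Of the 50-base words in GENCODE M21 transcripts of Tlr1, 15.4% also occurred in transcripts of other genes, most of them in Tlr6, and for Tlr6 the share was 12.3%. How the authors' counting placed reads that fit both genes is not given in the sources used here. The longest run shared without a mismatch was 229 bases, shown here because a read inside it cannot be assigned to either gene by sequence.
Tlr1 and Tlr6, shared run: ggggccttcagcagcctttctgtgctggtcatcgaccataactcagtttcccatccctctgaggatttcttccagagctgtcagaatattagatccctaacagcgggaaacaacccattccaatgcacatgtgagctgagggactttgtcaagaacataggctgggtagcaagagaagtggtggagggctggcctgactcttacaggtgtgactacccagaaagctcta
Of the other 7 genes, Tlr3 shared 5.30% of its 50-base words and Tlr4 0.22%, and Tlr2, Tlr7, Tlr8, Tlr9 and Tlr13 shared none. The Tlr3 words were those of Gm45542, which GENCODE M21 places antisense at the start of Tlr3 and which has no row in the deposited table, so reads of the 2 cannot be told apart without strand. In GENCODE M21 the Tlr3 gene begins at 45411080, upstream of its start at 45410608 in the deposited coordinates. Whether the shared words lie inside Tlr3 as deposited was not tested. No other row of the deposited table overlapped any of the 9 genes.

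Tlr4 encodes the receptor for LPS itself, the stimulus given to every library here. It had 172 and 241 counts in the MB-3 libraries, against 1046 and 173 counts in the DMSO libraries. Scaled to library size these were 9.61 and 13.4 CPM with MB-3, against 48.8 and 10.8 CPM with DMSO. DMSO replicate 2 thus lay between the MB-3 libraries, and DMSO replicate 1 stood 4.50-fold above it. Tlr4 had a log2 fold change of -1.39 (SE 0.628) and was not called (edgeR adjusted p = 0.135). Without DMSO replicate 1 it was 0.14 (edgeR adjusted p = 0.734), and without DMSO replicate 2 it was -2.07 (edgeR adjusted p = 0.000313), so the direction for Tlr4 rests on DMSO replicate 1. In those fits the single DMSO library is assumed to vary as the MB-3 libraries do. Among 7522 tested genes that averaged 10 CPM or more, 8 including Tlr4 had DMSO libraries that differed at least this much, and 3 had MB-3 libraries that did. The median absolute log2 ratio between the DMSO libraries was 0.11. Tlr1 and Tlr7 were also higher in DMSO replicate 1, and 120 and 566 of the 7522 genes differed between the DMSO libraries at least as much as they did. Tlr4 (ENSMUSG00000039005) lies on chromosome 4 from 66827584 to 66930284.

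**Figure D2:**
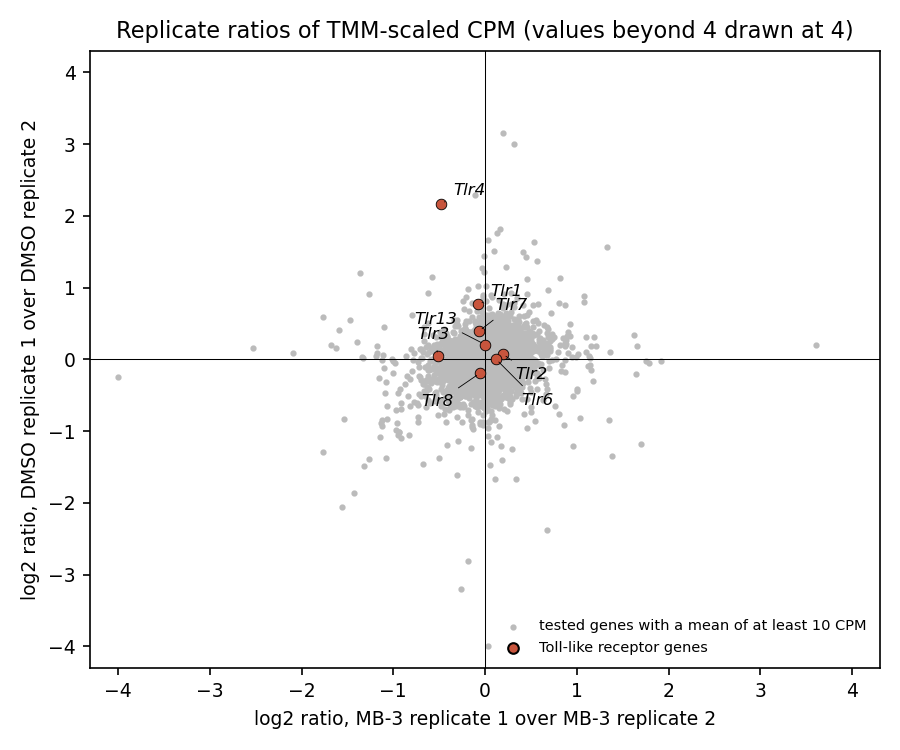
Log2 ratio of TMM-scaled CPM between the 2 MB-3 libraries (horizontal) and between the 2 DMSO libraries (vertical) for 7522 tested genes that averaged 10 CPM or more in grey and 8 receptor genes in red, Tlr9 being below that mean. Values beyond 4 are drawn at 4. Tlr4 stands at 2.17 on the vertical axis, and the other 7 receptors lie closer to 0 on it.

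Tlr3 encodes the endosomal receptor for double-stranded RNA, which signals through TRIF. It had 6.42 and 9.15 CPM in the MB-3 libraries, against 70.4 and 68.2 CPM in the DMSO libraries. All MB-3 values were far below all DMSO values, with a log2 fold change of -3.15 (SE 0.167, edgeR adjusted p = 5e-05). Of the 11841 tested genes, 179 had a lower log2 fold change. Conventional dendritic cells also express Tlr3, and the sum of their 6 markers was 5.14 and 5.52 CPM in the MB-3 libraries, against 7.08 and 7.08 CPM in the DMSO libraries, with Xcr1 at 0 in all of them. Within that list Batf3, a transcription factor gene of these cells, averaged 1.12 CPM with MB-3 and 4.12 CPM with DMSO (log2 fold change -1.88, edgeR adjusted p = 0.00439), while Zbtb46 averaged 4.02 CPM with MB-3 and 2.55 CPM with DMSO and was not called. The part of these markers in the Tlr3 result was not tested. Profiles over the 4 libraries were compared by Euclidean distance of log2(CPM + 0.1), centred on each gene's mean. The tested genes nearest to Tlr3 were Slfn9 (0.091), Ccdc63 (0.105) and 6530402F18Rik (0.146). Slfn9 averaged 7.01 CPM with MB-3 and 59.3 CPM with DMSO. Ccdc63 had only 0 and 1 counts in the MB-3 libraries, against 23 and 16 in the DMSO libraries. Its fitted log2 fold change was -4.91, so its small distance to Tlr3 depends on the added 0.1 CPM. Tlr3 (ENSMUSG00000031639) lies on chromosome 8 from 45395665 to 45410608.

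Tlr7, Tlr8 and Tlr13 are X-linked genes of endosomal RNA receptors. Tlr7, which reads single-stranded RNA, had 39.9 and 41.9 CPM in the MB-3 libraries, against 166 and 126 CPM in the DMSO libraries. The log2 fold change was -1.84 (SE 0.142, edgeR adjusted p = 0.000213). Tlr8 encodes a close relative of Tlr7, known in humans as a receptor for RNA breakdown products. It had 12.6 and 13.1 CPM in the MB-3 libraries, against 30.1 and 34.4 CPM in the DMSO libraries (log2 fold change -1.33, SE 0.121, edgeR adjusted p = 0.000431). For both genes the groups were well apart. Plasmacytoid dendritic cells also express Tlr7, and the summed level of their 5 markers was 1.28 and 1.90 CPM in the MB-3 libraries, against 3.40 and 3.63 CPM in the DMSO libraries, with Siglech and Pacsin1 at 0 in all of them. Tlr8 (ENSMUSG00000040522, 167242696 to 167264329) and Tlr7 (ENSMUSG00000044583, 167304929 to 167330558) lie next to each other on chromosome X, 40600 bases apart.

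Tlr13, which is absent from humans, went the other way. It had 118 and 118 CPM in the MB-3 libraries, against 40.3 and 35.0 CPM in the DMSO libraries. The log2 fold change was 1.65 (SE 0.0999, edgeR adjusted p = 7.97e-05), and 285 of the tested genes had a higher one. Tlr13 (ENSMUSG00000033777) lies elsewhere on chromosome X, from 106143204 to 106160493. Its FPKM ratio to Tlr7 was 8.17 and 7.78 in the MB-3 libraries, against 0.671 and 0.762 in the DMSO libraries.

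Tlr9 was barely detected. It had 22 and 23 counts in the MB-3 libraries, against 11 and 9 counts in the DMSO libraries. These were 1.23 and 1.28 CPM with MB-3, against 0.513 and 0.564 CPM with DMSO. The groups did not overlap, but with a log2 fold change of 1.22 (SE 0.461) Tlr9 was not called (edgeR adjusted p = 0.085). From 45 counts with MB-3 and 20 with DMSO the scaled ratio was 2.35, with an exact 95% binomial interval of 1.36 to 4.20 that covers counting error only. On log2(FPKM + 0.1) with limma the log2 fold change was 0.83 and the limma adjusted p 0.0318. Tlr9 (ENSMUSG00000045322) lies on chromosome 9 from 106222598 to 106226883. Among the mouse receptors outside the 9, Tlr5 and Tlr12 had no count in any library, and Tlr11 had 0 counts in both MB-3 libraries, against 17 and 4 in the DMSO libraries, too few to be tested.

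**Figure D3:**
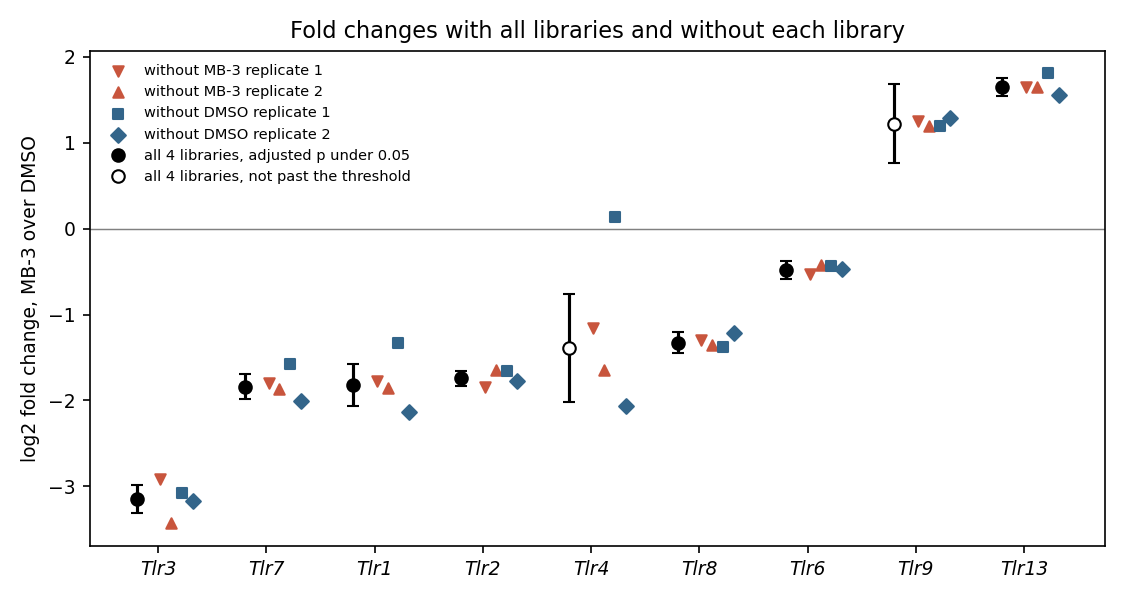
Log2 fold change of each receptor gene, MB-3 over DMSO, from edgeR with all 4 libraries (circles, bars are SE; filled where called) and with each library left out in turn (red for MB-3, blue for DMSO). Tlr4 moves from -2.07 without DMSO replicate 2 to 0.14 without DMSO replicate 1, while the other 8 genes keep their direction.

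Length-scaled FPKM values give the order of the receptors within a group. With MB-3, Tlr2 led at 125 ± 8.26 FPKM (SD, n = 2), followed by Tlr13 at 27.9 ± 0.759, Tlr6 at 5.51 ± 0.167, Tlr7 at 3.50 ± 0.213 and Tlr1 at 2.82 ± 0.181. Tlr4, Tlr8 and Tlr3 followed at 1.68, 1.62 and 1.35 FPKM, and each overlapped its neighbour in this order. With DMSO, Tlr2 stood at 433 ± 11.1 FPKM, and Tlr7, Tlr3, Tlr1 and Tlr13 followed at 12.9, 12.3, 10.2 and 9.13 FPKM, each overlapping its neighbour. Tlr6 (7.91), Tlr4 (4.45) and Tlr8 (4.19) came next, of which Tlr4 and Tlr8 overlapped, and Tlr9 was last in both groups, at 0.356 FPKM with MB-3 and 0.157 FPKM with DMSO.

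The sum over the 9 receptors was 175 and 166 FPKM in the MB-3 libraries, against 509 and 479 FPKM in the DMSO libraries. Tlr2 made up 75.2% and 72.2% of it with MB-3, against 86.6% and 88.7% with DMSO. Of the sum over the other 8 genes, Tlr13 made up 63.1% and 61.7% with MB-3, against 14.2% and 15.9% with DMSO. Tlr3 made up 2.50% and 3.49% of that sum with MB-3, against 18.1% and 22.7% with DMSO. These shares are of transcript levels and depend on the gene lengths used by the authors.

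**Figure D4:**
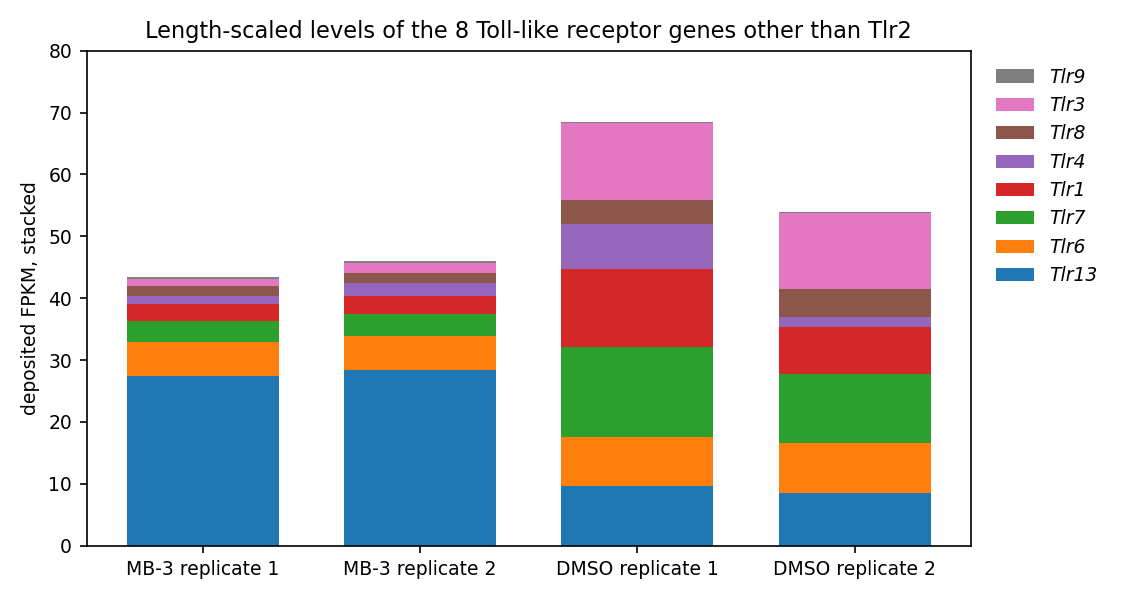
Deposited FPKM of the 8 receptor genes other than Tlr2, stacked for each library, with MB-3 libraries on the left. Tlr13 fills 63.1% and 61.7% of the MB-3 bars and 14.2% and 15.9% of the DMSO bars, and the Tlr3 part is smaller in both MB-3 bars than in both DMSO bars.

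The nearest tested gene on each side of each receptor was read for local context, in the deposited coordinates. On the X chromosome Tmsb4x, the tested gene before Tlr8 and the gene of an actin-binding peptide, fell by 0.86 on the log2 scale (SE 0.0757). Prps2, after Tlr7, fell by 0.92 (SE 0.151). Around Tlr13, the copper transporter gene Atp7a rose by 1.0 (SE 0.138) and the glycolytic gene Pgk1 rose by 0.56 (SE 0.0671). Klf3, before Tlr1, fell by 0.92 (SE 0.0991), and Fam114a1, after Tlr6, had a log2 fold change of 0.06 and was not called. Alas1, after Tlr9, fell by 0.86 (SE 0.0785), whereas Twf2, before Tlr9, was not called (0.20, SE 0.180). The tested neighbours of Tlr2 (Plrg1 and D930015E06Rik), Tlr3 (Fam149a and Ufsp2) and Tlr4 (Trim32 and Cdk5rap2) were not called. Their log2 fold changes ran from -0.18 to 0.46. Trim32 and Cdk5rap2 lay 1211346 and 3286572 bases from Tlr4, Plrg1 763917 from Tlr2 and Ufsp2 564920 from Tlr3. The other named neighbours lay within 91778 bases of their receptor. In all, 6 of the 14 neighbours outside the receptor family were called (edgeR adjusted p 0.00036 to 0.00478), a share near the 37.1% of all tested genes.

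Genes that carry, process or serve the receptors were read in 4 lists. Of 14 tested genes of receptor trafficking and chaperones, 2 were lower, 7 were higher and 5 did not pass, beside 20.2% lower and 16.9% higher among all tested genes, and the median log2 fold change was 0.24. Unc93b1, which carries the endosomal receptors, averaged 204 ± 20.6 CPM with MB-3 and 244 ± 10.4 CPM with DMSO (SD, n = 2) and did not pass (log2 fold change -0.26, SE 0.0935, edgeR adjusted p = 0.073), with adjusted p-values of 0.0203 to 0.0449 in 4 of the alternatives. Hsp90b1, the chaperone gp96 that folds most receptors, rose by 0.26 (SE 0.0678), a call lost without either MB-3 library. Its co-chaperone gene Cnpy3 had a log2 fold change of 0.22 (SE 0.137). Rab7b, a small GTPase of late endosomes reported to limit TLR4 and TLR9 signalling, rose to 534 ± 2.44 CPM with MB-3, against 11.2 ± 3.31 CPM with DMSO (SD, n = 2). Scimp, a TLR adaptor of macrophages, fell by 1.61 (SE 0.244), and Slc15a4, a lysosomal transporter needed for Tlr7 and Tlr9 signalling, rose by 0.64 (SE 0.118). The number of higher genes on this list was 2 without MB-3 replicate 1 and 4 without MB-3 replicate 2.

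Endolysosomal proteases and nucleases, which trim the receptors or digest their ligands, had 10 tested genes, of which 5 were higher, 0 lower and 5 did not pass, beside 16.9% higher and 20.2% lower among all tested genes. The median log2 fold change was 0.24. Cathepsin B (Ctsb) rose by 0.56 (SE 0.0698), and the nuclease genes Pld3 and Pld4 rose by 0.44 (SE 0.0968) and 0.39 (SE 0.112). The Pld3 call was lost without MB-3 replicate 1 (edgeR adjusted p = 0.0658), and the Pld4 call was lost without either MB-3 library or DMSO replicate 2 (edgeR adjusted p 0.103 to 0.121). The number of higher genes was 1 without MB-3 replicate 1 and 3 without DMSO replicate 2.

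Among 7 tested co-receptor and accessory genes, 2 were lower, 3 were higher and 2 did not pass (median 0.20). Together 5 of the 7 were called, beside 37.1% of all tested genes. Cd14, which hands LPS to the TLR4 complex, averaged 566 ± 7.39 CPM with MB-3 and 1117 ± 51.9 CPM with DMSO (SD, n = 2, log2 fold change -0.98, SE 0.0689). Ly96, the gene of the LPS-binding subunit MD-2, did not pass (0.20, SE 0.102). Cd180, which encodes the TLR4-related receptor RP105, rose by 1.41 (SE 0.163), while Ly86, the gene of its partner MD-1, fell by 0.56 (SE 0.101). Cd36, a scavenger receptor that presents lipids to Tlr2, rose by 0.66 (SE 0.0648).

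Adaptors, IRAK kinases and proximal signalling genes had 12 tested members, of which 5 were lower, 3 were higher and 4 did not pass (median -0.04), beside 20.2% lower and 16.9% higher among all tested genes. Myd88 averaged 132 ± 3.22 CPM with MB-3 and 323 ± 20.2 CPM with DMSO (SD, n = 2, log2 fold change -1.30, SE 0.0802), whereas Ticam1, the gene of TRIF, averaged 33.9 ± 3.67 CPM with MB-3 and 15.2 ± 0.817 CPM with DMSO (1.16, SE 0.125). Irak3, the inhibitory member of the IRAK family, fell by 1.62 (SE 0.108), and Traf3, a ubiquitin ligase of the interferon branch, rose by 1.39 (SE 0.174). Tirap, the bridge of MyD88 to Tlr2 and Tlr4, fell by 0.60 (SE 0.155), a call lost without MB-3 replicate 2 or DMSO replicate 1. The number of lower genes was 3 without MB-3 replicate 2 and 3 without DMSO replicate 1. Over the named members of these lists that passed, the edgeR adjusted p was at most 0.0363.

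**Figure D5:**
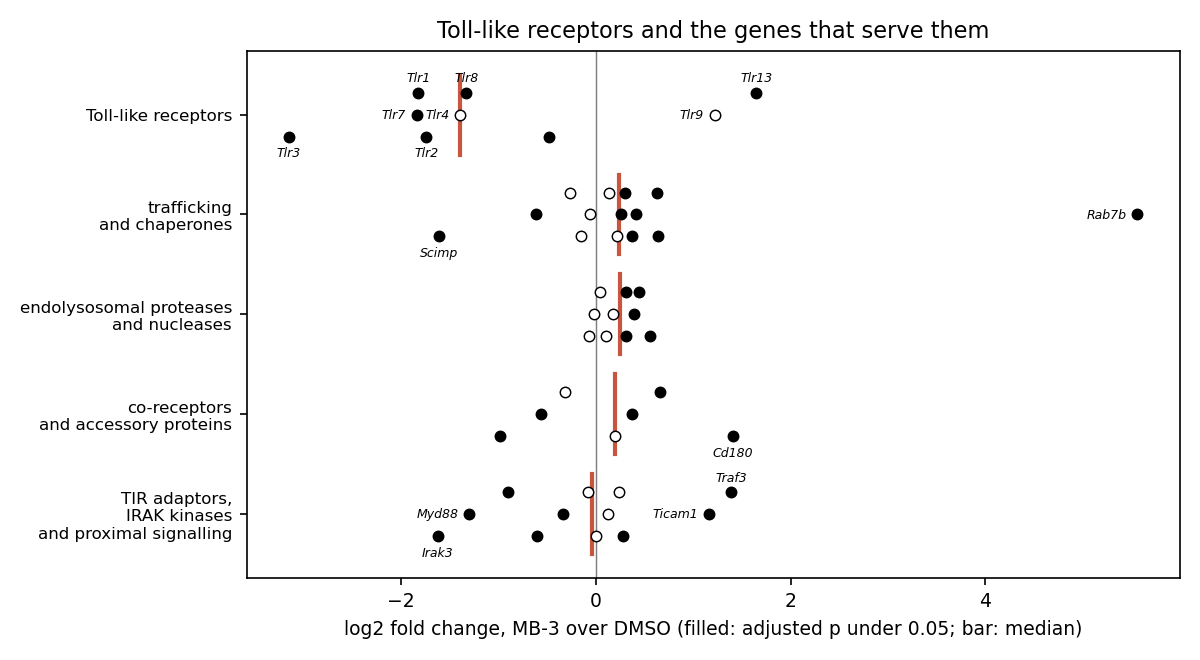
Log2 fold change, MB-3 over DMSO, of each tested gene in the receptor family and in 4 lists of genes that serve it; filled points passed the threshold and red bars are medians. The receptor median is -1.39, the value of the uncalled Tlr4, against 0.24, 0.24, 0.20 and -0.04 for the lists from top to bottom.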

How the data were processed

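RNA enriched with oligo(dT) went into strand-specific TruSeq libraries, per the labels' protocols. The deposited table gave whole-number counts per gene, not normalized, and FPKM values, per the file headers. The deposited FPKM values were the counts divided by library total and 1 length per gene, matching within 0.1% in 100.0% of 56453 pairs. Tools in the submitters' processing notes are HISAT2, StringTie 1.3.0 and edgeR, with mm10 and GRCm38.p4 as builds; the counting of strand and of reads that fit several genes is not given in the sources used here. The 4 libraries form 2 groups of 2 by title, and columns were matched by group initial and replicate number. Replicates were no copies within sampling noise (chi-square per degree of freedom 11.1 for MB-3 and 13.0 for DMSO).

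Counts were tested with edgeR 4.0.16 (R 4.3.3; filterByExpr, TMM factors of 0.966 and 1.00 for MB-3 and 1.01 and 1.02 for DMSO, glmQLFit, model with group only). The biological coefficient of variation was 0.126. P-values were adjusted over 11841 genes. The SE is the absolute log2 fold change over the square root of F. Alternatives used DESeq2 1.42.0 and limma 3.58.1, and limma was also run on log2(FPKM + 0.1). The procedure was tested on simulated data. The members and the lists were chosen with earlier results of these data known. Named genes were the 9 members, Tlr5, Tlr11 and Tlr12, the 3 largest called changes per list, 9 fixed pathway genes, the nearest tested neighbours, the most abundant markers and the 3 genes nearest in profile to Tlr3. Ly86, Batf3, the macrophage markers other than Lyz2 and the markers at 0 were named after their values were seen. Tasl had no row under that symbol and Itgam had 2, so both stayed out of the counts.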

Additional observations from a re-analysis of the deposited data

How the results depend on the processing

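The replicate numbers of the labels did not show that samples are paired: the deviations of same-numbered libraries correlated at 0.217 across 11841 genes, and 2 pairs are too few to decide. With the replicate number as a block, 6 receptors were lower and 1 higher, as without it, and over all genes 2706 were lower and 2340 higher, against 2392 and 1999. The directions of Tlr1, Tlr2, Tlr3, Tlr6, Tlr7, Tlr8, Tlr9 and Tlr13 were the same in every alternative that tested them. The order of levels was the same for TMM-scaled CPM per kilobase. That scale uses the gene lengths implied by the FPKM values and keeps the order within each library by construction. It therefore cannot check the order against other lengths. On log2(FPKM + 0.1) with limma the number of higher receptors was 2, with Tlr9 added. Tlr4 was called with no low-count filter (-1.40, edgeR adjusted p = 0.0165), and its log2 fold change was 0.14 without DMSO replicate 1 and -2.07 without DMSO replicate 2; the cause was not tested. Leaving out 1 library at a time gave 1283 to 1802 higher and 1726 to 1936 lower genes in all, 5 to 7 lower receptors, 2 to 6 higher trafficking genes, 1 to 5 higher endolysosomal genes and 3 to 5 lower adaptor and kinase genes. Uncalled neighbours changed sign: D930015E06Rik was at 0.01 with upper-quartile factors, 0.02 without the 10 most abundant genes in the library totals, 0.01 without MB-3 replicate 2 and -0.19 to 0.20 with each library left out, Fam114a1 was at -0.02 without DMSO replicate 1, and Twf2 at -0.01 without MB-3 replicate 2 and 0.43 without DMSO replicate 2. A count of 1 was worth 0.0469 to 0.0641 CPM, which limits Tlr9 and Tlr11.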

Other observations

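Tlr4 was not alone in differing between the DMSO libraries. The mitochondrial gene mt-Nd4l had 2475 and 2430 counts in the MB-3 libraries, against 1 and 1945 in the DMSO libraries. Ifi47, an interferon-induced GTPase gene, had 8722 and 7606 counts with MB-3, against 34518 and 2890 with DMSO. Cebpb, the gene of an LPS-induced transcription factor, had 2181 and 2627 counts with MB-3, against 550 and 3752 with DMSO. The symbol Itgam, the integrin chain CD11b, stood on 2 overlapping identifiers on chromosome 7. One of them (ENSMUSG00000108596) had 2 and 1346 counts in the MB-3 libraries, against 1675 and 1478 in the DMSO libraries. The other (ENSMUSG00000030786) had 3409 and 2375 counts with MB-3, against 1258 and 556 with DMSO. These genes were chosen after their values were seen, and why single libraries stand apart at single genes was not tested.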
